A study of Homo sapiens with 6 samples.

Results

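The regions described here are the H3K9me3 peaks on the arms of chromosome 8, away from its centromere. A peak belongs to them where its midpoint on hg19 lies outside 41.84 to 48.84 Mb of chromosome 8. By that rule 294 of the 2826 peaks of the series were taken, namely 103 of 1334 in the control list (7.72%), 177 of 1220 at 6 h (14.5%) and 14 of 272 at 24 h (5.15%). Chromosome 8 was chosen by its number of peaks in these same lists, so these shares are a description and nothing is read from them.

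The cells were PC-3, an established human line from a bone metastasis of a prostate adenocarcinoma. All cultures were deprived of serum for 24 h. After that the control stayed untreated, and the others were exposed to 5 ng/mL of the cytokine TGF-β1, either 6 h or 24 h long. The chromatin was precipitated with an antibody to histone H3 trimethylated at lysine 9, and each condition has 1 ChIP library and 1 input library, without replicates. Differences between conditions are therefore differences between single libraries and were not tested. By their peak names, the treated lists alone are marked as made from filtered reads, so treatment and a difference in filtering cannot be told apart. Only the ChIP peak lists were used here, and how far a single cell line stands for prostate cancer was not examined.

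H3K9me3 is laid down by methyltransferases such as SUV39H1, SUV39H2 and SETDB1 and is read by HP1 proteins, which compact the chromatin. It marks satellite repeats beside centromeres, silenced transposable elements, and tandem gene arrays such as those of the zinc finger genes. PC-3 cells are known for loss of the short arm and gain of the long arm of chromosome 8. A segment present in more copies gives more fragments in the ChIP and in the input library alike. Copy number was not measured in these files, so copies of the DNA and the amount of mark on each copy cannot be told apart from a peak list.

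Nearly all of these peaks lay on the long arm. It held 102 of the 103 control peaks on the arms (99.0%, exact 95% binomial interval 94.7 to 99.98), 173 of 177 at 6 h (97.7%, 94.3 to 99.4) and 13 of 14 at 24 h (92.9%, 66.1 to 99.8). The long arm makes up 69.98% of the length of both arms. In the control there were 1.05 peaks per Mb on the long arm (exact Poisson 95% interval 0.853 to 1.27) and 0.0239 on the short arm (0.000605 to 0.133). The 6 h values were 1.77 (1.52 to 2.06) and 0.0956 (0.0260 to 0.245), and at 24 h 0.133 (0.0710 to 0.228) and 0.0239 (0.000605 to 0.133). The long arm was thus the denser in each list. The ratio of the densities was 43.8 in the control (7.68 to 1745), 18.6 at 6 h (7.12 to 68.9) and 5.58 at 24 h (0.838 to 237), and with 14 peaks the interval at 24 h includes equal densities. These intervals hold counting error alone, and peaks close to each other are not independent draws.

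**Figure D1:**
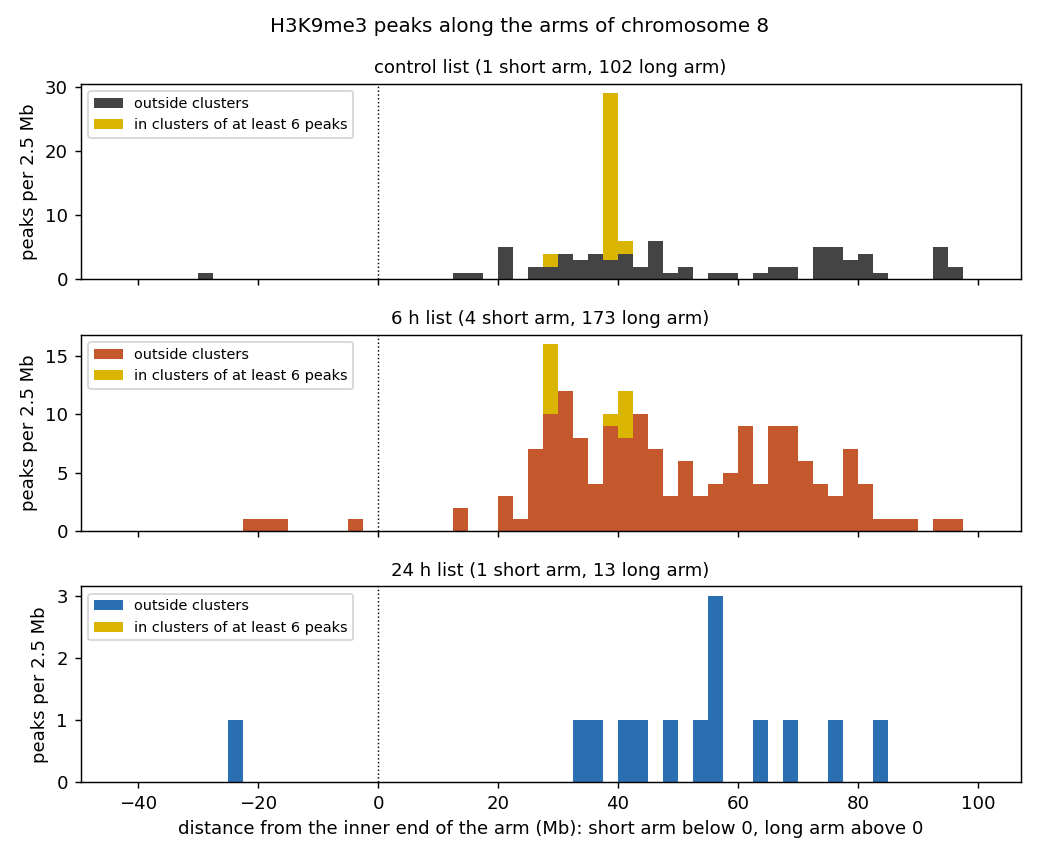
Number of peaks per 2.5 Mb (vertical axis) against the distance in Mb from the inner end of each arm, with the short arm below 0 and the long arm above 0, for the control, 6 h and 24 h lists. Peaks in clusters of at least 6 peaks are in yellow; the 6 short-arm peaks stand alone, and the long-arm peaks of the 6 h list spread over most of the arm.

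Of the 18 chromosomes with both arms measured, chromosome 8 had the highest ratio of long-arm to short-arm density in the control, where the next was 6.65 and the median 1.16. At 6 h it ranked second, after 1 chromosome with no peak on its short arm, and the next was 5.07. At 24 h it was at rank 5 among the 17 with a peak on either arm, after 3 chromosomes with no short-arm peak and 1 with a ratio of 10.3. Among 41 arms of the autosomes and chromosome X, ordered by peaks per Mb, the long arm of chromosome 8 came at place 1 in the control and 6 h lists and at place 3 at 24 h. The short arm had the places 39, 34 and 22, in the order control, 6 h, 24 h. The place of the long arm follows from how the chromosome was picked. The arms themselves had not been told apart in that choice, but the long arm held nearly all of the chromosome's arm peaks. The ratio of the arms and its rank are therefore not independent of the choice.

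**Figure D2:**
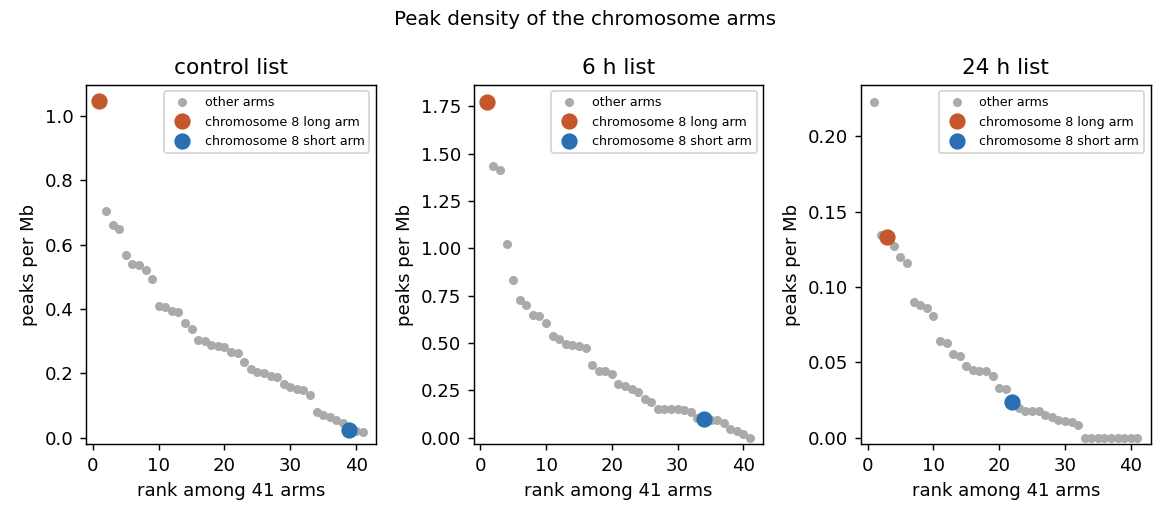
Peaks per Mb (vertical axis) of 41 chromosome arms ordered from the densest to the sparsest (horizontal axis, rank) in each list, with the arms of chromosome 8 in colour and the other arms in grey. The long arm is at rank 1 in the control and at 6 h and at rank 3 at 24 h, and the short arm is at ranks 39, 34 and 22.

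The short arm held 6 peaks in all, none of which overlapped a peak of another list. On the arms of all other chromosomes 4.18% of control peaks overlapped a 6 h peak and 2.77% of 6 h peaks a control peak. For 24 h peaks there, 14.6% overlapped a control peak and 10.7% a 6 h peak. With 6 peaks the short arm cannot be told apart from those arms by overlap. The control peak ran from 12051706 to 12051903 and had a fold enrichment of 4.56. Fold enrichment is the authors' value from the peak caller, the ChIP pileup over the local background at the summit, each with 1 added. At 6 h the peaks were at 19727383 to 19727699 (fold 4.33), 23540732 to 23540962 (4.02), 26267992 to 26268261 (5.50) and 37890011 to 37890255 (4.77). The 24 h peak lay from 18529445 to 18529640, with a fold of 3.83. None reached a −log10 q of 5, where q is the caller's p-value adjusted over the genome, and the highest was 4.35, at the 6 h peak that starts at 26267992. Their summits held 12 to 16 fragments, which is close to the smallest pileups that the caller accepted anywhere in the 6 h list (10) and in the 24 h list (13).

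No peak of any list lay on the first 13.8 Mb of the long arm. The member nearest to the centromere was the 6 h peak from 62624120 to 62624364, with a fold of 3.48, and the nearest peak left out on that side was a 24 h peak from 46868436 to 46868631 (fold 3.65). On the short arm the innermost member was the 6 h peak that ended at 37890255 (fold 4.77), and the nearest peak left out was a 6 h peak from 42697127 to 42697392 (fold 5.42). A stretch of 24.7 Mb around the centromere was therefore without members, although the part within the rule's limits held 48 other peaks.

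Along the long arm, peaks were sparse up to 70 Mb, frequent from there to 130 Mb, and sparser again beyond. These limits were set after the values were seen. In the 6 h list the inner part held 3 peaks (0.142 per Mb, 0.0292 to 0.414), the middle 161 (2.68, 2.28 to 3.13) and the outer part 9 (0.550, 0.251 to 1.04). In the control the parts held 5, 86 and 11 peaks, or 0.236 (0.0767 to 0.551), 1.43 (1.15 to 1.77) and 0.672 (0.336 to 1.203) per Mb. At 24 h they held 0, 12 and 1. The middle part took 93.1% of the 6 h peaks of the arm, 84.3% of those of the control and 92.3% of those at 24 h. Its density in the control fell to 0.933 per Mb without clusters, and that at 6 h to 2.50.

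The fullest windows of 10 Mb at 6 h were 80 to 90 Mb with 35 peaks, 110 to 120 Mb with 32 and 70 to 80 Mb with 31, and the others between 70 and 130 Mb held 18 to 26. In the control they were 80 to 90 Mb with 43, 120 to 130 Mb with 14 and 90 to 100 Mb with 12. The control window from 80 to 90 Mb drew 28 of its 43 peaks from clusters, and the next windows from 100 to 110 Mb and 110 to 120 Mb held only 3 and 5. By these windows the 6 h peaks were thus spread more evenly over this part than the control peaks. At 24 h the window from 100 to 110 Mb held 4 peaks and that from 90 to 100 Mb 3, and the windows from 80 to 90 Mb and 110 to 120 Mb had 2 each.

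Spacing depends on the number of peaks as well, so its medians do not measure how evenly the peaks lay. The median distance between neighbouring long-arm peaks was 316 kb in the control (quartiles 11.9 and 1132 kb), 206 kb at 6 h (72.2 and 580 kb) and 4640 kb at 24 h (1962 and 5740 kb). Outside clusters it was 706 kb in the control (quartiles 262 and 1472 kb) and 221 kb at 6 h (82.0 and 619 kb). There 8 of 71 distances in the control and 46 of 161 at 6 h were under 100 kb. A list with more peaks also has more short distances, so spacing could not show which list lay more evenly outside clusters. Of 99 bins of 1 Mb that touch the arm, 45 held a control peak, 60 a 6 h peak and 12 a 24 h peak. The control and 6 h lists had 37 of these bins in common, which is 37 of 45 and 37 of 60. These lists therefore often fell in the same megabase, while they hardly shared positions, as given below. The 6 h list alone filled 60 of the 99 bins, and most peaks of both lists lay in the middle part of the arm. Whether they had more bins in common than such filling alone would give was not tested.

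Most long-arm peaks were low and narrow. The median width was 229.5 bp in the control, 264 bp at 6 h and 214 bp at 24 h, and the peaks covered 27216, 50986 and 3011 bp of the arm. The median fold was 3.81 in the control (quartiles 3.28 and 4.26), 4.01 at 6 h (3.63 and 4.40) and 3.88 at 24 h (3.68 and 4.18). On the arms of all other chromosomes the median widths were 228, 262 and 237 bp, in the order control, 6 h, 24 h. The median folds there were 4.06, 4.13 and 3.70. Low and narrow peaks were thus not particular to the long arm of chromosome 8. No long-arm peak reached a fold of 6, and the highest fold was 5.36 for the control, 5.66 for 6 h and 4.69 for 24 h. A fold of at least 5 was found in 5 of 102 control peaks, 12 of 173 at 6 h and 0 of 13 at 24 h, against 173 of 1334, 137 of 1220 and 12 of 272 in the whole lists. The whole lists include the peaks beside centromeres.

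Few were far above the caller's threshold. A −log10 q of at least 5 was reached by 19 of 102 long-arm peaks in the control (18.6%, 11.6 to 27.6), where 41.3% of the whole list did. At 6 h 5 of 173 reached it (2.89%, 0.945 to 6.62), against 8.85% of the list, and at 24 h 1 of 13 (7.69%, 0.195 to 36.03), against 60.3%. In each list the members were thus weaker by this measure than the list as a whole, which holds the strong peaks beside the centromeres. Set against the arms of all other chromosomes, where the shares were 19.2%, 7.49% and 26.2%, the control was close with clusters included. Of its 19 long-arm peaks at this limit, 13 lay in clusters. Outside clusters, 6 of 72 long-arm control peaks reached it, against 83 of 620 control peaks on the arms of all other chromosomes. This difference was not tested. A −log10 q under 2 was found in 59 of the 173 peaks at 6 h (34.1%, 27.1 to 41.7), 11 of 102 in the control (10.8%, 5.51 to 18.5) and 3 of 13 at 24 h. For the arms of all other chromosomes these shares were 25.8%, 20.1% and 17.5%.

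The long arm held its smallest part of each list among the strong peaks. Whole lists include the peaks beside centromeres, which the rule leaves out of the members. At 6 h it held 59 of the 324 peaks of the list with a −log10 q under 2 (18.2%, 14.2 to 22.9), 71 of 537 between 2 and 3 (13.2%), 38 of 251 between 3 and 5 (15.1%) and 5 of 108 at 5 or more (4.63%, 1.52 to 10.5). In the control the parts were 6.15%, 12.1%, 11.7% and 3.45%, so the weakest class was low there too. The excess of 6 h peaks over control peaks on the arm lay among peaks under a −log10 q of 5. Over all long-arm peaks the 6 h list had 1.70 times the number in the control (1.32 to 2.19), and 2.25 times outside clusters (1.69 to 3.01). Chromosome 8 was chosen by its peak counts in these lists, so these ratios are a description and not independent of that choice. At a −log10 q of at least 5 it had 5 against 19, a ratio of 0.263 (0.0768 to 0.729), and 5 against 6 outside clusters, a ratio of 0.833 (0.201 to 3.28). The lower number of strong peaks at 6 h thus rested largely on the control clusters. On the arms of all other chromosomes the ratio was 1.36 for all peaks (1.23 to 1.50), or 1.49 outside clusters (1.34 to 1.65). For those with a −log10 q of at least 5 it was 0.529 there (0.393 to 0.707), or 0.687 outside clusters (0.481 to 0.974). On the arms of chromosomes 5, 10, 11, 14 and 20, which are also rich in peaks, it was 1.84 for all peaks (1.57 to 2.16) and 0.966 for the strong ones (0.554 to 1.68). These intervals hold counting error alone, with 1 library per condition, so they do not test the treatment. The q-value was adjusted within each list, whose depth is unknown and filtering may differ. A −log10 q of 5 is therefore not the same limit in both lists.

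The peaks of highest fold held 14 to 21 fragments at the summit, against medians of 16, 14 and 18 for all long-arm peaks of the control, 6 h and 24 h lists. In the control they lay from 81312248 to 81312497 (fold 5.36, 15 fragments), from 133000497 to 133000713 (5.33, 18 fragments) and from 70624978 to 70625308 (5.22, 21 fragments). At 6 h 2 peaks had the same fold of 5.66 from 16 fragments each, one from 78739268 to 78739653 and the other from 84795262 to 84795885. The next, from 130123831 to 130124165, had a fold of 5.44 from 14. The 24 h peaks of highest fold were from 113480727 to 113481005 (4.69), from 85651710 to 85651933 (4.64) and from 83584330 to 83584723 (4.56), with 21, 18 and 18 fragments. These 24 h peaks were also the ones of highest −log10 q in their list on this arm, at 5.33, 4.32 and 4.17. At none of these peaks did another list have an overlapping peak, which was so for most peaks on this and other arms, as given below.

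By −log10 q the order was another one in the control and at 6 h. The strongest long-arm peak of both lists was at the same place. It ran from 128748482 to 128748691 in the control (−log10 q 18.3, fold 3.70) and from 128748464 to 128748691 at 6 h (16.6, fold 4.99), and both ended at the same base. The summit held 81 fragments in the control over a local background 11.2 times the genome-wide one, and 53 fragments at 6 h over 5.69 times. The control peak from 70602305 to 70602603 came second (−log10 q 16.98, fold 3.96, 69 fragments) and had no partner. Next in the control was a peak inside a cluster, from 86785869 to 86786396 (9.46, fold 2.45), with the largest pileup of any member, 91 fragments. Next at 6 h were those from 110453435 to 110453689 (5.45, fold 4.85) and the peak from 78739268 named above (5.26).

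The control list had its densest stretch in a pair of neighbouring clusters. A cluster is a run of at least 6 peaks of any list, none further than 100 kb from its neighbour, and 4 such clusters lay on the long arm. The cluster from 86560928 to 86572189 held 7 control peaks and 0 in both treated lists. Its neighbour from 86730669 to 86894506, 158 kb further on, held 19 control peaks, 1 at 6 h and 0 at 24 h, and the 6 h peak overlapped none of the 19. Together these had 26 of the 102 control peaks of the arm (25.5%, 17.4 to 35.1) and 13 of the 19 with a −log10 q of at least 5. Their folds were low, from 2.20 to 4.01 with a median of 2.91, and their pileups high, with a median of 40.5 fragments. The local background behind them was 3.74 to 19.4 times the genome-wide one, with a median of 6.97. The REXO1L array of near-identical gene copies is known to lie on this arm, but whether these peaks fall in it was not tested, since the gene table at hand is of another build. Reads from near-identical copies can map to several of them, and the treatment of such reads is not stated in the labels or files.

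The other clusters were looser and held weak peaks. From 78092906 to 78420851 there were 6 peaks at 6 h and 2 in the control, with folds of 3.53 to 4.60 and 3.47 to 3.79. From 89713138 to 89987152 there were 4 at 6 h and 2 in the control. No peak of these clusters reached a −log10 q of 5, and none overlapped a peak of another list, as for most peaks on the arms.

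Positions were hardly shared between lists. Of the 102 long-arm peaks of the control, 2 overlapped a 6 h peak by at least 1 bp (1.96%, 0.238 to 6.90), where 5.02% of the whole control list did. In the other direction it was 2 of 173 peaks (1.16%, 0.140 to 4.11), against 5.25% of the 6 h list. Between the control and 24 h there was no overlap, with 0 of 102 (upper bound 3.55%) against 9.82% of the control list, and 0 of 13 (upper bound 24.7%) against 51.5% of the 24 h list. For 6 h and 24 h it was 1 of 173 (0.578%, 0.0146 to 3.18) against 3.77%, and 1 of 13 (7.69%, 0.195 to 36.03) against 17.3%. On the arms of all other chromosomes 4.18% of control peaks overlapped a 6 h peak (2.84 to 5.92) and 14.6% of 24 h peaks a control peak (8.39 to 22.9). The intervals for the long arm of chromosome 8 overlap these, and the difference was not tested.

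Merged over the lists, the peaks on both arms formed 291 regions, of which 3 had a peak in more than 1 list and 0 in all of them. Regions were not merged on other arms, so the low shares of overlapping peaks given above are the comparison. The strongest was that ending at 128748691, described above. In the region from 84391165 to 84391501 the control and 6 h peaks each had 15 fragments at the summit, with folds of 3.69 and 3.90 and a −log10 q of 2.27 and 2.29. In the region from 132938213 to 132938531 the 6 h peak had 14 fragments and a fold of 3.68, and the 24 h peak 23 fragments and a fold of 3.68. Their −log10 q was 1.90 and 3.60. At these last regions the local background was 1.76 to 2.08 times the genome-wide one in each list.

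The 13 long-arm peaks at 24 h lay between 83584330 and 132938531, and 12 of them overlapped no peak of the other lists. Most 24 h peaks on the arms of all other chromosomes did not overlap either. There 14.6% overlapped a control peak and 10.7% a 6 h peak. The distance to the nearest control peak had a median of 203 kb and ranged from 20.4 to 886 kb. To the nearest 6 h peak it had a median of 257 kb, with 2 of the 13 within 100 kb. Their folds ran from 3.06 to 4.69 and their summits held 14 to 23 fragments. They were single peaks, since the closest neighbours among them were 561 kb apart.

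The local background is a measure that the choice of chromosome 8 did not use. The caller computes fold and −log10 p from 2 numbers, the summit pileup and the background, by a Poisson model. These were solved back for each peak, and the pileup came out as a whole number, within 0.01, in all 294 members. The background is given relative to the lowest one of the same list, taken as the genome-wide level (control 1.89 fragments, 6 h 1.73 and 24 h 2.66). It is known at called peaks only, and the caller is known to take the largest of several local estimates. On the long arm its median was 1.76 times the genome-wide level in the control (order-statistic 95% interval 1.70 to 2.04), 1.59 at 6 h (1.44 to 1.66) and 1.39 at 24 h (1.19 to 1.94). Without clusters the control value was 1.45 (1.34 to 1.70) and that at 6 h 1.59 (1.44 to 1.66). At the short-arm peaks it was 1.10 in the control, 1.00, 1.00, 1.16 and 1.87 at 6 h, and 1.19 at 24 h. With 6 peaks on the short arm the arms cannot be compared by this measure beyond these values.

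On the arms of all other chromosomes the median background was 1.36 in the control (1.36 to 1.46), 1.37 at 6 h (1.37 to 1.42) and 1.56 at 24 h (1.37 to 1.89). At 6 h the interval of the long arm lay above that of the other arms, and the same held in the control for all peaks. Outside clusters the control interval of the long arm was 1.34 to 1.70. It has no like value on the other arms, where 97 of 717 control peaks lay in clusters and were kept. At 24 h the intervals overlapped. The arms of chromosomes 5, 10, 11, 14 and 20 had 1.46 (1.36 to 1.70), 1.73 (1.65 to 1.82) and 1.74 (1.41 to 2.23), and at 6 h theirs was close to the long arm of chromosome 8. A background equal to the genome-wide level, within 0.005 of it, was found behind 6 of 173 long-arm peaks at 6 h (3.47%, 1.28 to 7.40), against 14.3% on all other arms (12.2 to 16.7) and 6.62% on those of chromosomes 5, 10, 11, 14 and 20 (4.51 to 9.32), an interval that overlaps that of the long arm. In the control it was 12 of 102 (11.8%, 6.23 to 19.6) against 18.5% (15.7 to 21.5), and at 24 h 0 of 13 (upper bound 24.7%) against 12.9%. Differences between arms were not tested, because peaks of 1 library are not replicates.

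**Figure D3:**
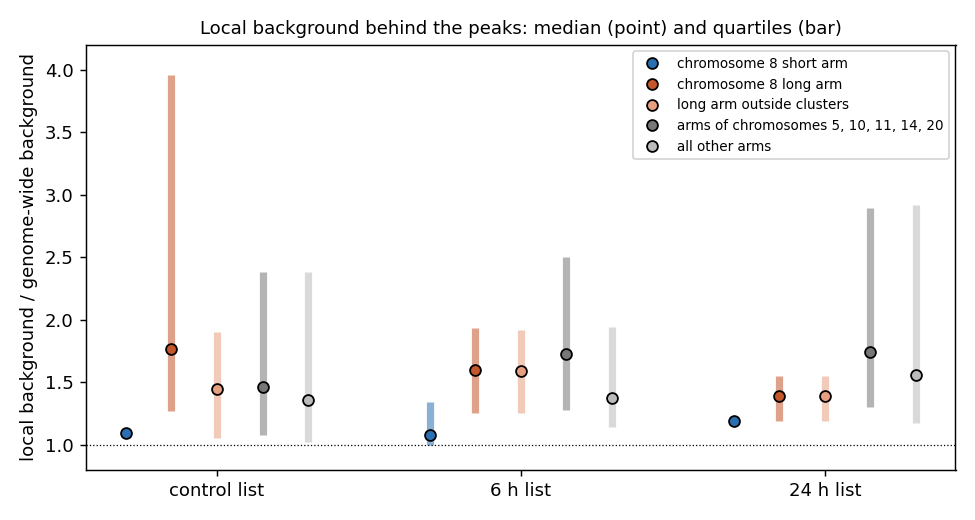
Local background divided by the genome-wide background of the same list (vertical axis) for peaks of the chromosome 8 arms and of other arms, as the median (point) with the quartiles (bar), in each list. The long arm lies at 1.76, 1.59 and 1.39 in the control, 6 h and 24 h lists; all other arms, which include those of chromosomes 5, 10, 11, 14 and 20, lie at 1.36, 1.37 and 1.56.

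The background also differed along the long arm. Of the 5 control peaks below 70 Mb, 4 had a background equal to the genome-wide level, against 8 of 86 from 70 to 130 Mb, where the median was 1.92 (1.70 to 2.72). At 6 h 1 of 3 peaks below 70 Mb was at that level and 5 of 161 in the middle part, whose median was 1.59 (1.44 to 1.66). In the windows of 10 Mb from 70 to 130 Mb the median at 6 h stayed between 1.44 and 1.71. In the control it ranged from 1.02 (110 to 120 Mb) to 4.42 (80 to 90 Mb, where 28 of 43 peaks lay in clusters). The control median of 1.92 for the middle part includes the peaks in clusters. The limits of the parts were set after the values were seen. In the sparser outer part beyond 130 Mb no peak was at that level (0 of 11 in the control and 0 of 9 at 6 h), with medians of 1.70 (1.28 to 2.74) and 1.79 (1.02 to 2.50). With 11 and 9 peaks, the outer part is too small to tell whether its share at the genome-wide level was low.

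Pileups rose with the background, as a peak must have more fragments to pass where the background is higher. At 6 h the 34 long-arm peaks with a background under 1.2 times had a median of 12 fragments, the 83 from 1.2 to 1.8 times 14, the 47 from 1.8 to 3 times 17 and the 9 at 3 times or more 20. In these classes the median fold fell from 4.40 to 4.14, 3.58 and 3.14. Summits of at most 20 fragments made up 168 of the 173 peaks at 6 h (97.1%, 93.4 to 99.1), 65 of 102 in the control (63.7%, 53.6 to 73.0) and 10 of 13 at 24 h. Above 50 fragments there were 9 control peaks, 1 peak at 6 h and 0 at 24 h. Of these control peaks, only those that start at 70602305 and 128748482 (69 and 81 fragments) lay outside clusters. The tail of high pileups in the control thus lay mostly in the pair of clusters that starts at 86560928. Among the treated lists only the 6 h peak that ended at 128748691 was as high. Depth per library is unknown and filtering may differ, so fragment counts cannot be compared between lists as amounts of the mark.

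**Figure D4:**
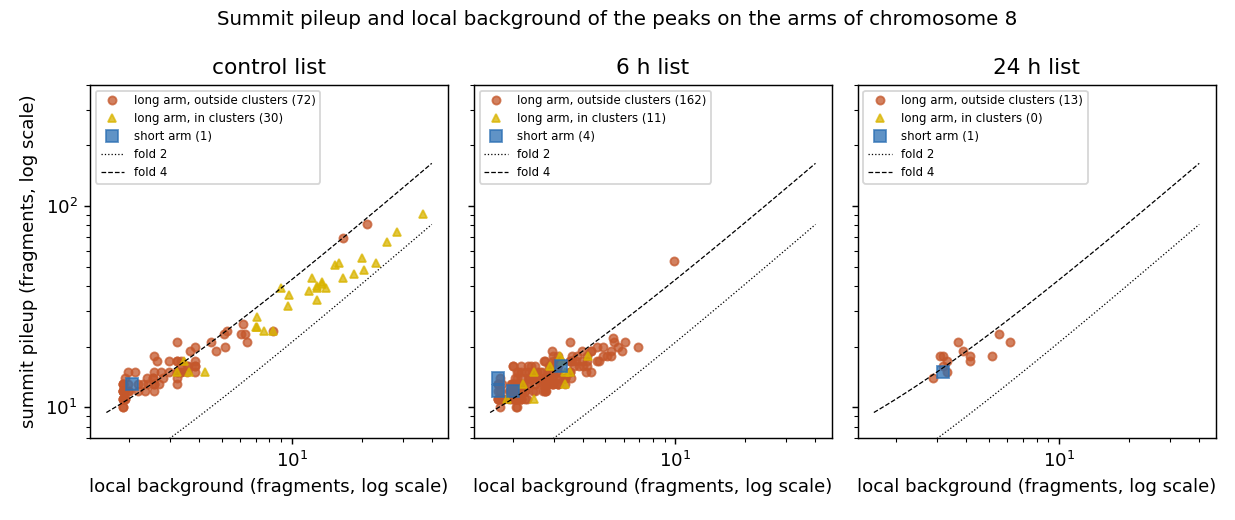
Summit pileup in fragments (vertical, log scale) against local background in fragments (horizontal, log scale) for each peak on the chromosome 8 arms in each list, with lines of equal fold at 2 and 4. At 6 h the peaks crowd at low pileups, with 168 of 173 long-arm peaks at 20 fragments or fewer, while the clustered control peaks reach 91 fragments.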

How the data were processed

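H3K9me3 ChIP-seq of PC-3 cells is represented by 3 peak lists, 1 per ChIP library. The tools named in the submitters' processing notes are MACS2 2.1.1.20160309, BWA, Trimmomatic and FastQC 0.11.9, with hg19 (GRCh37) as the build; the caller's thresholds are not stated there. Per the file contents, deposited peak names of the treated lists carry a word for filtered alignments (all 1220 and all 272) and control names do not, so processing may have differed between lists. The deposited columns are start, end, score, fold enrichment (a linear ratio), −log10 p, −log10 q and summit offset. In all peaks the deposited score equals −log10 q times 10 without its decimals.

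Pileups and backgrounds were solved with scipy 1.17.1 under Python 3.11.15, in a procedure tested on simulated data. Depth per library is unknown. Intervals are exact 95% binomial or Poisson intervals, or order-statistic intervals of medians. Overlap means at least 1 bp. Arm limits of other chromosomes lie 2 Mb beyond the centromere gap, or the heterochromatin gap of chromosomes 1, 9 and 16. These positions and chromosome lengths were entered from general knowledge of hg19. Short arms of chromosomes 13, 14, 15, 21 and 22 and chromosome Y were left out. Positions are 1-based. Peaks were named by rule: for each arm and list the 3 highest by fold and by −log10 q, regions in several lists, clusters, fullest windows, and neighbours of the rule's limits. Members and rules were chosen with earlier results of these data known. No peak was assigned to a gene, since the gene table is on GRCh38.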

Additional observations from a re-analysis of the deposited data

How the results depend on the processing

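No paired analysis was possible because only 1 library stands for a condition. Of 128 values under alternative settings, 105 stayed within the interval of the value in the text (or, for the number of clusters, within 1.5 times) and 23 did not. Medians of too few peaks for an interval were held against their range. Some settings could not change a value, since all members had a solved pileup and no short-arm or 24 h member lay in a cluster. Short-arm intervals were also very wide. The count of 105 is therefore no measure of how stable the results are. With a −log10 q of at least 5, long-arm peaks per Mb (control, 6 h, 24 h) were 0.195, 0.0513 and 0.0103, short-arm ones 0, 0 and 0, and the long-arm share 100% in each list. At that limit 20% of the 5 long-arm peaks at 6 h overlapped a control peak and 0% a 24 h peak, 0% of the 24 h peaks overlapped a 6 h peak, and the median background was 7.14 in the control and 1.71 at 6 h. Keeping only peaks of at least the median fold, the long-arm densities were 0.502 (control) and 0.831 (6 h), and with peaks within 100 kb counted as 1 they were 0.718 and 1.23. Without peaks in clusters the control had 0.738 peaks per Mb, a median background of 1.45 and a median fold of 4.09. The order of the control and 6 h densities on the long arm was thus reversed at a −log10 q of at least 5, where 13 of the 19 control peaks lay in clusters and 6 against 5 were left outside them, and kept in the other settings. Chains within 50 kb gave 2 clusters and within 200 kb 9, against 4. The causes were not tested. No list gives a read total, so the effect of depth on these counts is unknown.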

Other observations

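Several peaks on the arms carried exactly the same fold and −log10 p as another peak of their list. In the control 22 of 103 peaks did so, in 9 sets, and at 6 h 44 of 177, in 19 sets, while at 24 h there were 0 of 14. A set held at most 4 peaks in the control and 3 at 6 h. Since both values follow from the summit pileup and the local background, such peaks had the same small number of fragments over the same background. In the control, the peaks from 63997431 to 63997632, from 69759035 to 69759303 and from 82684020 to 82684265 were 1 such set, each with 11 fragments over the genome-wide background and a fold of 4.16.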
